A study of Mus musculus with 10 samples.

Results

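The genes described here are 35 mouse genes known to be imprinted, chosen by name from what is known of imprinting. Earlier results of these data were known when they were chosen. All 35 were found by their Ensembl identifiers among the 30677 genes of the count table, and 33 were among the 20027 genes with enough counts to be tested. RNA-seq was made from TNGA cells, a mouse embryonic stem (ES) cell line that carries GFP at 1 allele of Nanog, grown in serum and LIF. The 3 MB-3 cultures received 100 μM of MB-3, an inhibitor of the histone acetyltransferase Kat2a, for 48 h. The 3 DMSO cultures received an equal volume of DMSO, the vehicle. The libraries of each group carry the letters A, B and C, and what a letter marks, such as a day or a passage, is not stated in the labels. All 6 libraries come from 1 cell line, and nothing in the labels places them in separate derivations, so p-values measure the spread between these cultures. The depth was 46863700 to 51137896 counts in the DMSO libraries and 42270312 to 49334434 in the MB-3 libraries.

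Levels are given in CPM, counts scaled to a common normalized library size, and genes are compared with each other in CPM per kb of exon. In DMSO the imprinted genes ran from Impact, at 54.1 ± 2.99 CPM per kb (SD, n = 3), to Peg13 and Airn, which had at most 7 counts in any library. In the test of MB-3 against DMSO without the letters, 0 of 33 imprinted genes passed an adjusted p of 0.05 (edgeR quasi-likelihood test, Benjamini-Hochberg), where 0.205% of all tested genes did. With the replicate letter as a block, 6 of 33 passed (18.2%), where 7.12% of all tested genes did: Plagl1, Sgce, Igf2 and Grb10 fell (4 of 33, where 3.9% of all tested genes fell), and Kcnq1ot1 and Mest rose (2 of 33, where 3.22% rose). The letter itself, tested beside treatment, was called for 9 of 33 (27.3%), where it was called for 7.84% of all tested genes.

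Imprinted genes are transcribed mainly from 1 parental copy, some of them only in certain tissues or transcripts. For most, DNA methylation laid down in the egg or the sperm marks a control region near them and is kept through the divisions of the embryo, and a few depend on a histone mark of the egg instead. They lie in domains, where a control region often drives a long noncoding RNA on 1 chromosome and protein-coding genes on the other. Many of them regulate growth, and in cultured ES cells the marks are known to drift between lines and passages. The counts do not separate the parental copies, so a level here is the sum over both. In bulk cultures, fewer cells that express a gene and less RNA per cell cannot be told apart.

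The identity of the cultures was read from marker genes. Pou5f1, a core pluripotency factor, was at 650 to 717 CPM over the 6 libraries, and Esrrb, an orphan nuclear receptor of the same network, at 639 to 699 CPM. The summed pluripotency markers were at 4189, 4343 and 4003 CPM in DMSO A, B and C and at 4120, 4265 and 4185 CPM in MB-3 A, B and C. Within that list, 1 of 12 was called by edgeR and by DESeq2 without the block (0.205% and 0.959% of all tested genes), Tbx3, at a log2 fold change of -0.40 (edgeR, Benjamini-Hochberg adjusted p = 0.024). With the replicate letter as a block, 4 of 12 were called (33.3%, against 7.12% of all tested genes), Tbx3 and Tfcp2l1 lower and Fgf4 and Utf1 higher. Markers of mesendoderm summed to 28.9, 17.3 and 53.3 CPM in the DMSO libraries and to 11.2, 8.68 and 15.7 CPM in the MB-3 libraries, so every MB-3 library was below every DMSO library and C was the highest of each group. Afp and Ttr of extraembryonic endoderm and Prl3d1 and Tpbpa of trophoblast, also on the marker lists, had no row in the count table. The other markers had at least 1 count in some library, as did every gene of that table. Mesp1 and Cer1 of mesendoderm, Sox17 and Apoa1 of extraembryonic endoderm, Elf5, Plac1 and Gcm1 of trophoblast and Neurog2 and Dcx of neural cells had under 10 counts in every library. Other lineage factors were above that, with 156 to 481 counts per library for Eomes, 22 to 153 for Mixl1, 26 to 130 for Cdx2, 31 to 51 for Gata4 and 14 to 26 for Gata6.

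**Figure D1:**
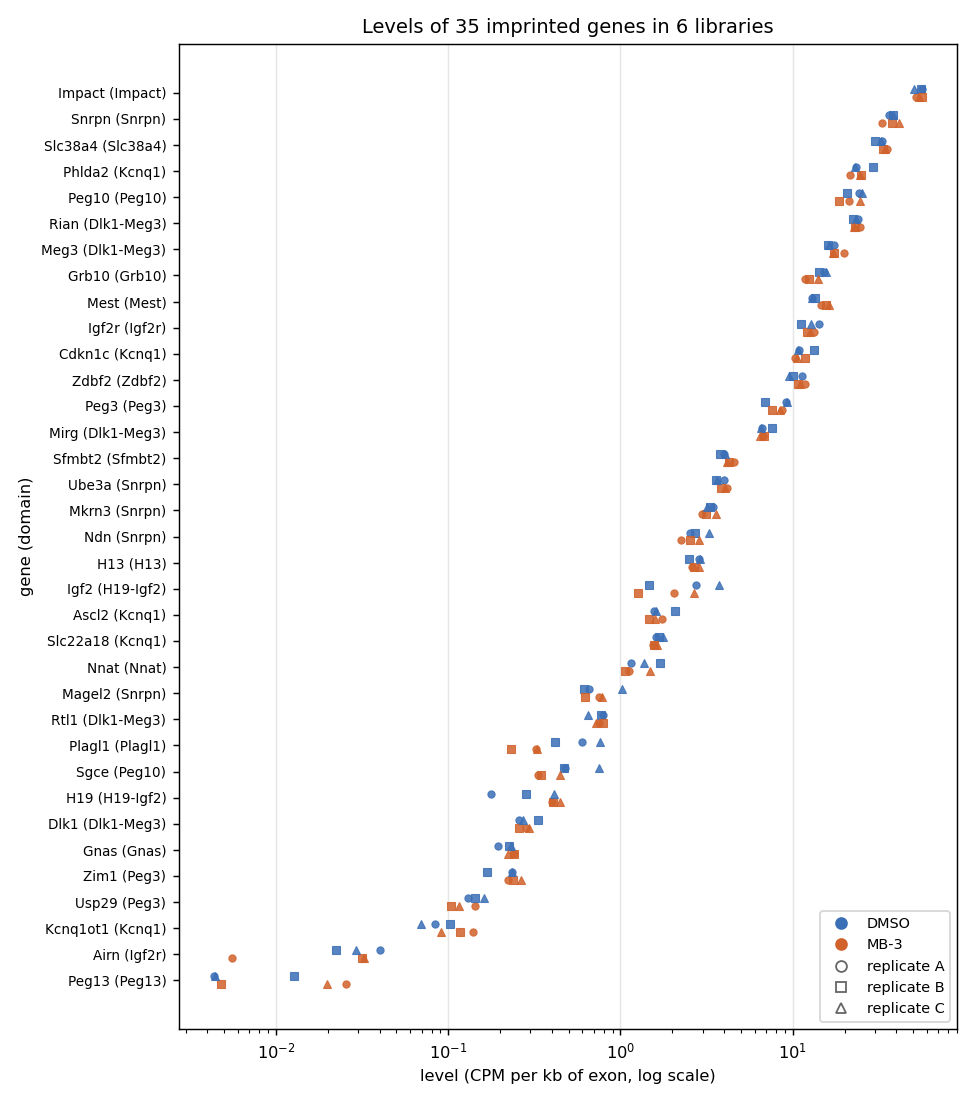
Level of each imprinted gene in CPM per kb of exon (log axis) in the 3 DMSO and the 3 MB-3 libraries, ordered by the DMSO mean, with the domain in parentheses. Colours stand for the group and point shapes for the letter, and Impact lies highest at 54.1 CPM per kb in DMSO, and Airn and Peg13, with under 10 counts in every library, lie lowest.

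Levels in DMSO differed 636-fold between the highest and the lowest tested imprinted gene in CPM per kb. Impact, a paternally expressed inhibitor of the kinase GCN2 on chromosome 18, was at 289, 283 and 260 CPM in DMSO A, B and C and at 267, 288 and 276 CPM in MB-3. Snrpn, a paternally expressed component of the splicing machinery on chromosome 7 (GRCm38 59982495 to 60140219), followed at 37.5 ± 1.05 CPM per kb in DMSO. Its libraries were at 78.5, 82.1 and 82.7 CPM in DMSO and 71.2, 81.0 and 88.9 CPM in MB-3, and 27.3% of its exonic bases are shared with another gene on the same strand. Slc38a4, an amino acid transporter, was at 31.8 ± 1.71 CPM per kb, and Phlda2, which restrains placental growth, was at 25.2 ± 3.68. Peg10 at 23.4 ± 2.44 and Rian at 23.2 ± 0.710 CPM per kb came next, and their DMSO ranges overlapped. After them stood Meg3 at 16.5 ± 0.747, Grb10 at 15.0 ± 0.736, Mest at 13.1 ± 0.291 and Igf2r at 12.7 ± 1.47 CPM per kb. Of the 34 pairs of neighbours in the whole order, 18 had overlapping DMSO ranges, so the order within those pairs is not resolved. The order also rests on the length used. Over the longest transcript in place of all exons, Rian was at 52.3 CPM per kb, second to Impact and above Snrpn at 39.1, Phlda2 at 37.3 and Slc38a4 at 34.5, and Peg10 stayed at 23.4.

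Rian and Meg3, maternally expressed noncoding RNAs of the Dlk1-Meg3 domain on chromosome 12, were among the 10 highest imprinted genes in CPM per kb. Rian, which hosts small nucleolar RNAs, was at 435, 409 and 425 CPM in DMSO A, B and C and at 449, 420 and 414 CPM in MB-3. Meg3 (chromosome 12, 109541001 to 109571726) was at 315, 290 and 293 CPM in DMSO and at 359, 314 and 310 CPM in MB-3. For both genes the groups overlapped. Mirg, a host of microRNAs, was lower than both in DMSO, at 6.91 ± 0.590 CPM per kb (n = 3). The paternally expressed genes of the same domain stood lower still on that scale: Dlk1, which encodes a Notch-like ligand, at 0.286 ± 0.0395 CPM per kb, and Rtl1, a gene derived from a retrotransposon, at 0.736 ± 0.0782 CPM per kb. The log2 fold changes of the 5 genes lay between -0.06 (Mirg) and 0.13 (Meg3), and none was called with or without the block over all libraries. Meg3 came nearest, with a blocked log2 fold change of 0.13 and an adjusted p of 0.056 (edgeR, Benjamini-Hochberg). Without letter A the blocked value was 0.098 (adjusted p = 0.43, edgeR), without letter C it was 0.15 (adjusted p = 0.036, edgeR), and the value without the block was 0.062 without MB-3 A.

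In the Snrpn domain, Snrpn stood above its paternally expressed neighbours on the scale per kb. Mkrn3, which encodes a makorin ring finger protein, was at 3.32 ± 0.148 CPM per kb in DMSO, Ndn, which encodes necdin, at 2.83 ± 0.388 and Magel2, of the same MAGE family, at 0.763 ± 0.223. Ube3a, a ubiquitin ligase that is expressed from the maternal copy in neurons and from both copies elsewhere, averaged 77.2 ± 4.54 CPM in DMSO and 82.7 ± 2.97 in MB-3, and 27.3% of its exonic bases lie opposite another gene. The use of strand in the counting is not stated, so reads of Ube3a and of its antisense transcript cannot be told apart. No gene of this domain was called for MB-3, or for the letter over all libraries. With 1 library left out, the letter was called for Snrpn without DMSO C and for Magel2 without MB-3 A and without MB-3 C.

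In the Peg3 domain, the zinc finger gene Peg3 was at 8.42 ± 1.32 CPM per kb in DMSO, while the ubiquitin peptidase gene Usp29 was at 0.145 ± 0.0159 and the maternally expressed zinc finger gene Zim1 at 0.212 ± 0.0388. The retrotransposon-derived Peg10, needed for placental development, and Sgce, which encodes epsilon-sarcoglycan, are neighbours on chromosome 6 and stood apart in level, at 23.4 CPM per kb for Peg10 and 0.566 ± 0.161 for Sgce.

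Among genes that are the only one of their domain in the set of 35, Zdbf2, which encodes a zinc finger protein, was at 130 ± 12.3 CPM in DMSO and 141 ± 6.76 in MB-3. Sfmbt2, a Polycomb group gene, was at 36.3, 34.7 and 36.8 CPM in DMSO and 41.4, 38.8 and 37.7 CPM in MB-3, without overlap. Slc38a4 was at 141, 127 and 139 CPM in DMSO and 150, 143 and 146 CPM in MB-3, also without overlap. Their log2 fold changes were 0.13 for Sfmbt2 and 0.11 for Slc38a4, and neither was called in either fit. Without DMSO B the value of Slc38a4 was 0.062. H13, a signal peptide peptidase, was at 24.4 ± 1.89 CPM in DMSO and 24.1 ± 1.19 in MB-3, and Nnat, a small membrane protein of neurons, at 2.57 ± 0.510 and 2.23 ± 0.415 CPM. Gnas, the stimulatory G protein subunit, was listed at 2.42 ± 0.213 CPM in DMSO, and 22.0% of its exonic bases lie opposite another gene. Of the genes under 10 counts, Airn, the noncoding RNA antisense to Igf2r, had 7, 4 and 5 counts in DMSO A, B and C and 1, 5 and 5 in MB-3. Peg13, a noncoding RNA, had 1, 3 and 1 counts in DMSO and 6, 1 and 4 in MB-3. Neither was tested in the main fit, and neither was called without the filter on low counts. Their counts are too few to read a treatment difference from.

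Variation between cultures of 1 group was compared through the letters. The median coefficient of variation over the 3 DMSO libraries was 10.6% for the 33 tested imprinted genes and 8.56% for all tested genes, and over the MB-3 libraries it was 7.26% and 7.41%. Imprinted genes had a median of 1159 counts per DMSO library and all tested genes one of 514, so the sets differ in depth as well. The count of 9 imprinted genes called for the letter was 2 (6.06%) without DMSO B, Igf2 and Peg10, where 1.2% of all tested genes were called. It was 5 (15.2%) without DMSO A, these with Kcnq1ot1, Peg3 and Plagl1, where 3.15% of all tested genes were called. DESeq2 called 4 (12.1%), Igf2, Igf2r, Peg10 and Peg3, where it called 3.28% of all tested genes.

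Igf2, the paternally expressed growth factor of the H19-Igf2 domain (chromosome 7, 142650766 to 142666816), varied most by letter. It was at 15.7, 8.33 and 21.4 CPM in DMSO A, B and C and at 11.8, 7.20 and 15.4 CPM in MB-3 A, B and C. C was the highest and B the lowest of both groups. Beside treatment, C was above B by 1.24 on the log2 scale (edgeR test of the letter, Benjamini-Hochberg adjusted p = 4.0e-10). A same-strand annotated gene shares 62.8% of its exonic bases, so its counts are uncertain. The summed mesendoderm markers took the same order of letters. So did the summed markers of extraembryonic endoderm, at 214, 181 and 256 CPM in DMSO and 180, 172 and 206 CPM in MB-3. In the latter list Sparc and Lamb1 took this order, but other members did not. Lama1 was highest in A and Gata6 lowest in C of both groups, and Gata4 was highest in B of DMSO. The part of these markers in the Igf2 result was not tested.

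Peg10 and Peg3 also had their lowest level in B. Peg10 was at 162, 138 and 169 CPM in DMSO A, B and C and at 142, 124 and 165 CPM in MB-3 (letter adjusted p = 2.7e-04, edgeR, Benjamini-Hochberg). Peg3 was at 122, 91.8 and 123 CPM in DMSO and 116, 101 and 113 CPM in MB-3 (letter adjusted p = 1.4e-03, edgeR, Benjamini-Hochberg). Igf2r, the maternally expressed receptor that clears IGF2 by carrying it to lysosomes, was at 132, 104 and 119 CPM in DMSO and 124, 113 and 118 CPM in MB-3, with B lowest again (letter adjusted p = 0.021). Its log2 fold change was -0.00 with a standard error of 0.08.

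The maternally expressed growth restraints of the Kcnq1 domain took another order. Cdkn1c, which encodes the cell cycle inhibitor p57, was at 22.1, 27.2 and 21.9 CPM in DMSO A, B and C and 21, 24 and 21.5 CPM in MB-3 (letter adjusted p = 0.037, edgeR). Phlda2 was at 26.0, 32.98 and 25.7 CPM in DMSO and 24.0, 27.9 and 27.5 CPM in MB-3 (letter adjusted p = 0.036, edgeR). In both genes B was the highest library of its group. Both letter calls were lost with DESeq2, without DMSO A, without DMSO B and without MB-3 A, and that of Cdkn1c also without MB-3 B. Plagl1, Sgce and Kcnq1ot1 were called for the letter too (adjusted p = 0.014, 0.0075 and 0.013, edgeR), and their values stand with the treatment results. These calls were lost with DESeq2 and without DMSO B. That of Sgce was also lost without DMSO A and without DMSO C, that of Plagl1 without DMSO C and without MB-3 B, and that of Kcnq1ot1 without MB-3 C. For Cdkn1c, 30.6% of exonic bases lie opposite another gene. In the same domain, Ascl2, a trophoblast transcription factor, was at 2.83 ± 0.453 CPM in DMSO and 2.60 ± 0.223 in MB-3, and Slc22a18, a transporter, at 2.86 ± 0.129 and 2.68 ± 0.0706. Neither was called in any of these tests.

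**Figure D2:**
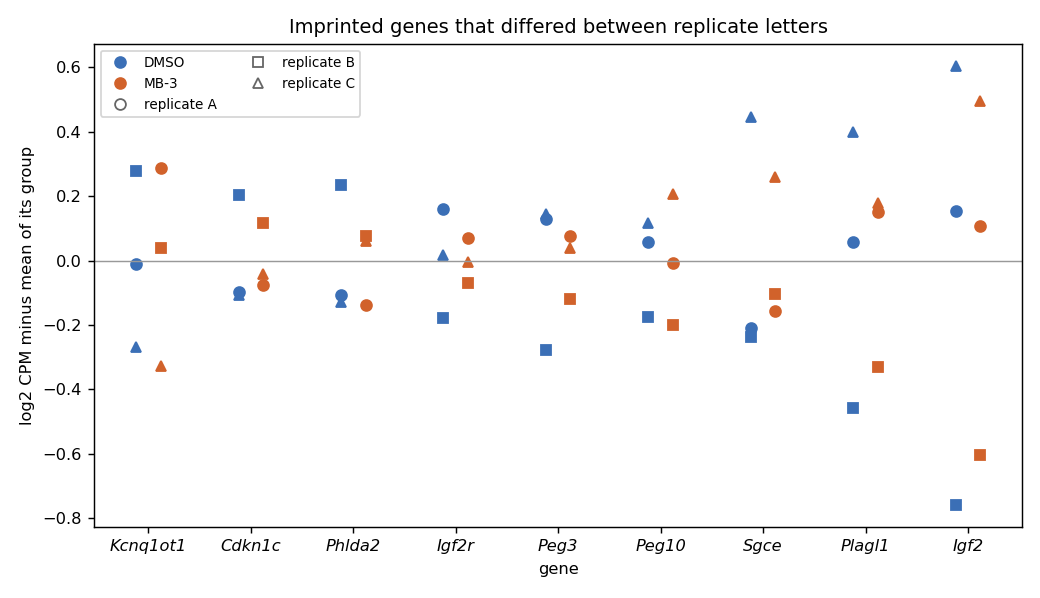
Log2 CPM of each library minus the mean of its own group, for the 9 imprinted genes called for the replicate letter, with colours for DMSO and MB-3 and point shapes for the letters. Igf2 is highest in C and lowest in B in both groups, and Cdkn1c is highest in B in both groups.

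The comparison of MB-3 with DMSO asked whether inhibiting Kat2a for 48 h moved imprinted transcripts. Of the 33 tested genes, 12 had a positive and 21 a negative log2 fold change, with a median of -0.03 against -0.00 over all tested genes. The median size of the change was 0.12 on the log2 scale for imprinted genes and 0.10 for all tested genes, with fitted values from -1.01 to 0.52. Without the block, 5 of 33 had an unadjusted p under 0.05 (edgeR), where 10.9% of all tested genes did. By expressed copy, 4 of the 10 maternally expressed genes were positive and 6 negative, with a median of -0.03. Of the 19 tested paternally expressed genes, 6 were positive and 13 negative, with a median of -0.04. The 4 genes whose expressed copy varies with tissue or transcript were divided evenly, with a median of 0.04. All of the blocked calls but that of Grb10, which is expressed from the maternal copy outside neurons and the paternal copy in neurons, were of paternally expressed genes. The difference between the copies was not tested. With DMSO B left out, the fit without the block called 3 imprinted genes, Kcnq1ot1, Plagl1 and Sgce, and 520 of 20370 tested genes in all. With any other library left out it called 0 imprinted genes, and 0 to 62 genes in all.

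**Figure D3:**
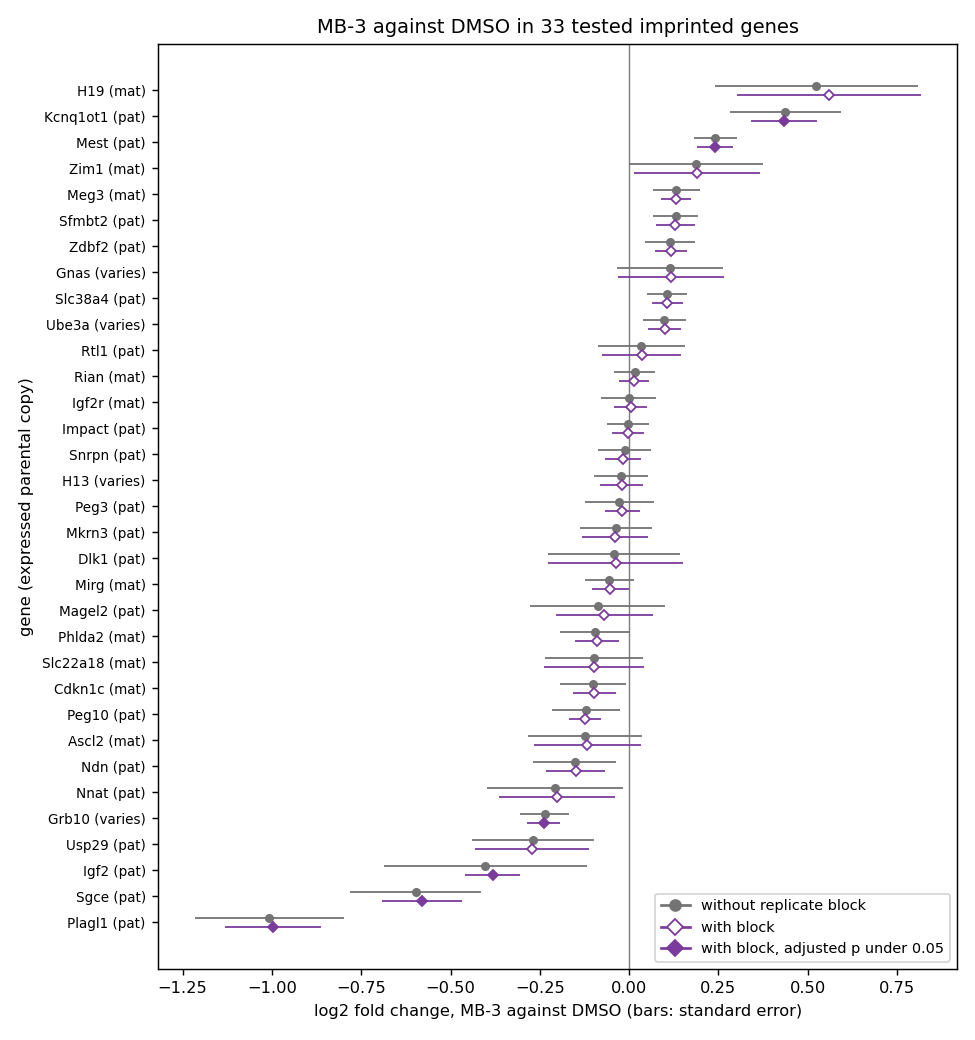
Log2 fold change of MB-3 over DMSO for the 33 tested imprinted genes, fitted without the replicate letter (circles) and with it as a block (diamonds, filled where the adjusted p is under 0.05), with bars for the standard error. Plagl1 lies lowest at -1.01, and the standard error of Igf2 is 0.28 without the block and 0.08 with it.

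Promoter sequences are shown for those genes called with the block that have one in the RefSeq table (GRCm38.p6), since a mark at the promoter is how several of these genes are silenced. Each window runs from 250 bases before to 50 after a transcript start, 5′ to 3′ on the strand of the gene, and is the one of that gene with the most CG dinucleotides. Capitals mark TGCCGC or, on the other strand, GCGGCA, the hexamer that ZFP57 binds when methylated. The windows are chr10:13090582-13090881 (+) for Plagl1, chr6:30737800-30738099 (+) for Mest, chr11:12037371-12037670 (-) for Grb10, chr7:142658755-142659054 (-) for Igf2 and chr7:143296498-143296797 (-) for Kcnq1ot1.
Plagl1: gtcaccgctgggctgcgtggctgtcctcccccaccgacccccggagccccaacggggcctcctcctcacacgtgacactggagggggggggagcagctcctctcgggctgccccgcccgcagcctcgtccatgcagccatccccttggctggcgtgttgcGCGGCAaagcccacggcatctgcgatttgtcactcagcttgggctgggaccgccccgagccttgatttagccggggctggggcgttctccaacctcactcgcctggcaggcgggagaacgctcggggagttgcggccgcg
Mest: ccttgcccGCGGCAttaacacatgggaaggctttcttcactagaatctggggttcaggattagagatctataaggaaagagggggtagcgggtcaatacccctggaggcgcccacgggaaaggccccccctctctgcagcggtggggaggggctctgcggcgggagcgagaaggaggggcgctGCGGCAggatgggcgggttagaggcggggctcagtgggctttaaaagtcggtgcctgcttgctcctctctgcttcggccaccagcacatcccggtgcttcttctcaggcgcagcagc
Grb10: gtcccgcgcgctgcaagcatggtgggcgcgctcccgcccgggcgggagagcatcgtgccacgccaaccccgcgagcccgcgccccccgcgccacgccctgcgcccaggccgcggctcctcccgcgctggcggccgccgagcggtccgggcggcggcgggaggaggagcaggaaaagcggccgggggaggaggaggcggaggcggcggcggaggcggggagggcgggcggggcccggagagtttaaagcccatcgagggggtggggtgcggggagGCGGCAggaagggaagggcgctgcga
Igf2: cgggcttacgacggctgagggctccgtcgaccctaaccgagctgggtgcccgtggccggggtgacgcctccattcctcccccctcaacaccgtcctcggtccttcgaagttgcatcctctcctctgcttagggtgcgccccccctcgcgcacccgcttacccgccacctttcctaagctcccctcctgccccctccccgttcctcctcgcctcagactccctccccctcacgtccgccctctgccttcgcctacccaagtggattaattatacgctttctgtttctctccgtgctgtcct
Kcnq1ot1: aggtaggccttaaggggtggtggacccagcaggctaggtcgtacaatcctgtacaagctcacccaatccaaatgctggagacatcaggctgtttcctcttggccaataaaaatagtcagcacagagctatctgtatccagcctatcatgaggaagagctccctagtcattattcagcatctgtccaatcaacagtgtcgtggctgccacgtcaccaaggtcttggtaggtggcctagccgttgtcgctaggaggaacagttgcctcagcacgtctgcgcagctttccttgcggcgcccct

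The Grb10 window held 45 CG dinucleotides, that of Plagl1 26, that of Igf2 24, that of Mest 17 and that of Kcnq1ot1 9. The hexamer occurred 2 times in the Mest window and 1 time each in those of Plagl1 and Grb10. Windows were read for 28 of the 35 genes. Impact, on chromosome 18, was left out of this reading, and 6 other genes had no window. Of the 45 windows, 10 (22.2%) held the hexamer, where 11.6% of 32851 windows of the same length did. The 10 belong to 9 genes, since Mest windows starting at 30737800 and at 30737803 hold the same hexamers. The median window of an imprinted gene held 13 CG dinucleotides and the median of all windows 7. A match is a match of letters and says nothing of binding or methylation in these cells.

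Plagl1 (chromosome 10, 13060504 to 13131694), a paternally expressed zinc finger transcription factor that restrains the cell cycle, had the most negative log2 fold change of the set. It was at 4.67, 3.27 and 5.92 CPM in DMSO A, B and C and at 2.51, 1.80 and 2.57 CPM in MB-3 A, B and C. Every MB-3 library was below every DMSO library. The log2 fold change was -1.01 with a standard error of 0.21 (edgeR, Benjamini-Hochberg adjusted p = 0.080), and with the block it fell by 1.00 (adjusted p = 4.5e-06). The letter was called as well (edgeR, adjusted p = 0.014), with B the lowest of both groups. This letter call was lost with DESeq2, without DMSO B, without DMSO C and without MB-3 B. For MB-3 against DMSO, DESeq2 without the block called Plagl1 (adjusted p = 0.00097).

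Sgce (chromosome 6, 4674350 to 4747207) was at 5.07, 4.97 and 7.97 CPM in DMSO and at 3.54, 3.67 and 4.71 CPM in MB-3. The groups did not overlap, although MB-3 C came close to DMSO B. Its log2 fold change was -0.60 with a standard error of 0.18 (edgeR, adjusted p = 0.24), and with the block Sgce fell by 0.58 (adjusted p = 7.7e-04). Without DMSO C, the highest library, the value without the block was -0.34. Its neighbour Peg10, which shares its control region, had a log2 fold change of -0.12 (adjusted p = 0.68, and 0.092 with the block, edgeR), which ran from -0.23 without MB-3 C to -0.028 without MB-3 B.

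Igf2 overlapped between the groups, since DMSO B was below MB-3 A and C. Within each letter the MB-3 library was the lower one, with log2 ratios of -0.41 in A, -0.21 in B and -0.48 in C. The fit without the block gave -0.40 with a standard error of 0.28 (edgeR, adjusted p = 0.64), and with the block Igf2 fell by 0.38 (adjusted p = 1.2e-03). With 1 library left out, the value without the block ran from -0.70 (without DMSO B) to -0.067 (without DMSO C), and it was -0.16 without MB-3 B and -0.67 without MB-3 C. H19, the maternally expressed noncoding RNA of the same domain, was at 0.436, 0.698 and 1.01 CPM in DMSO and at 0.985, 1.00 and 1.096 CPM in MB-3. Its log2 fold change of 0.52 had a standard error of 0.28 and was called in neither fit (adjusted p = 0.53, and 0.21 with the block, edgeR). It was 0.27 without DMSO A and 0.85 without DMSO C.

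Grb10 (chromosome 11, 11930508 to 12038683), an adaptor that dampens insulin and IGF receptor signalling, was at 137, 129 and 142 CPM in DMSO and at 107, 112 and 127 CPM in MB-3. Each MB-3 library was below each DMSO library, by a narrow margin for MB-3 C and DMSO B. The log2 fold change was -0.24 with a standard error of 0.07 (edgeR, adjusted p = 0.23), and with the block it fell by 0.24 (adjusted p = 9.1e-04). Without letter A the blocked value was -0.18 and was not called (edgeR, adjusted p = 0.052).

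Mest (chromosome 6, 30723547 to 30748465), a paternally expressed gene for a protein with a hydrolase fold, was at 50.95, 53.0 and 51.1 CPM in DMSO and at 57.9, 61.3 and 64.1 CPM in MB-3. All MB-3 libraries were above all DMSO libraries, and the letter was not called (adjusted p = 0.66, edgeR). The log2 fold change was 0.24 with a standard error of 0.06 (edgeR, adjusted p = 0.15), and with the block Mest rose by 0.24 (adjusted p = 2.3e-03). DESeq2 without the block gave an adjusted p of 0.043. Of its exonic bases, 23.1% lie opposite another gene.

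Kcnq1ot1 (chromosome 7, 143203458 to 143296549) is a long noncoding RNA that is transcribed from the paternal copy and silences its neighbours there. It was at 7.77, 9.49 and 6.50 CPM in DMSO and at 12.9, 10.8 and 8.42 CPM in MB-3. DMSO B was above MB-3 C, so the groups overlapped, while within each letter the MB-3 library was the higher one. The log2 fold change was 0.44 with a standard error of 0.15 (edgeR, adjusted p = 0.31), and with the block Kcnq1ot1 rose by 0.43 (adjusted p = 2.8e-03). This call rested on letter A, without which the blocked value was 0.27 (edgeR, adjusted p = 0.19), and the value without the block was 0.28 without MB-3 A. In CPM per kb, over 93092 bases of exon, Kcnq1ot1 was the lowest of the tested imprinted genes, at 0.0851 ± 0.0161 in DMSO. In CPM it was not the lowest, with a DMSO mean of 7.92 against 0.714 for H19. The log2 fold changes of Cdkn1c, Phlda2, Ascl2 and Slc22a18, maternally expressed genes of its domain, lay between -0.12 and -0.09, and none was called.

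**Figure D4:**
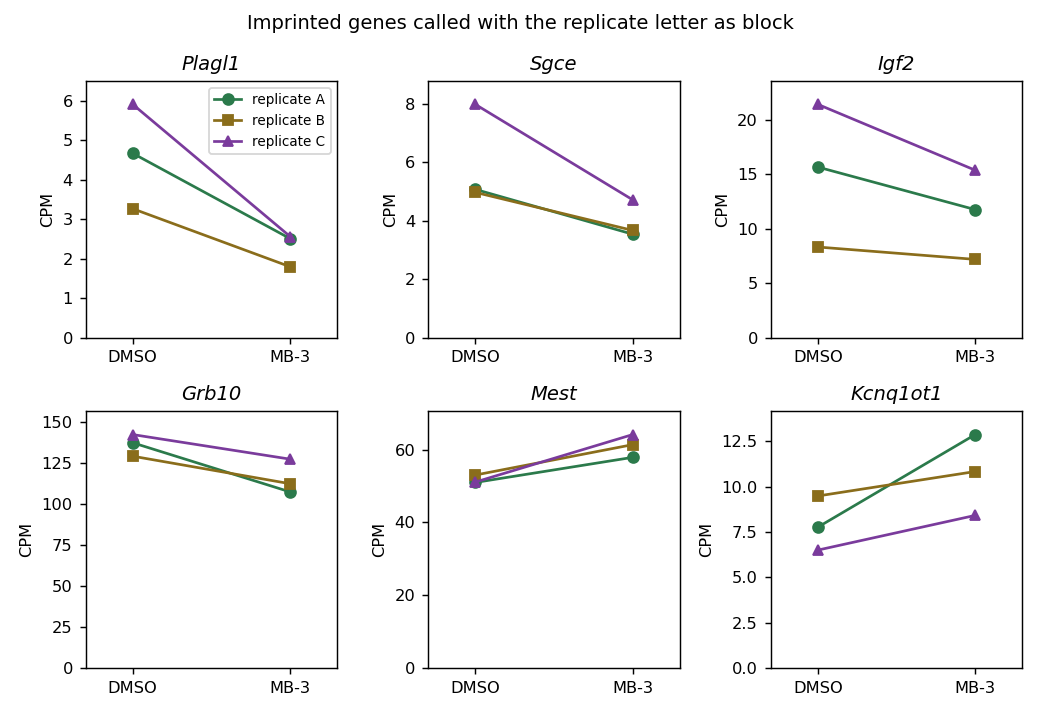
Level in CPM (axis from 0) in each library of the imprinted genes called with the replicate letter as a block, with libraries of the same letter joined. Plagl1, Sgce and Grb10 are lower and Mest is higher in every MB-3 library than in every DMSO library, while the groups overlap for Igf2 and Kcnq1ot1.

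Counting genes whose groups did not overlap in CPM, 6 of 33 (18.2%) were found among imprinted genes and 15.6% among all tested genes. Mest, Slc38a4 and Sfmbt2 were the higher ones and Plagl1, Sgce and Grb10 the lower ones. DESeq2 without the block called 2 of 33, where it called 0.959% of all tested genes.

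Markers of other cell types were read in the same libraries. The summed fibroblast-like markers were at 47.7, 41.8 and 56.3 CPM in DMSO A, B and C and 37.2, 37.7 and 41.3 CPM in MB-3, with all 9 tested markers negative and 3 of them, the collagen genes Col1a1, Col1a2 and Col5a1, lower with the block in edgeR (33.3%, against 3.9% of all tested genes). DESeq2 without the block called Col1a2, where it called 0.959% of all tested genes, and edgeR called 0. Fbln1, their most abundant gene, lay between 22.4 and 25.8 CPM, and Postn, Lum and S100a4 had under 10 counts. Of the 7 tested mesendoderm markers, edgeR called Lhx1 without the block (0.205% of all tested genes) and DESeq2 called Lhx1 and Mixl1 (0.959%). With the block 6 were lower in edgeR (85.7%, against 3.9% of all tested genes), Lhx1, Mixl1, T, Evx1 and Wnt3 by the widest margins. The most abundant of them, T, lay between 3.58 and 32.5 CPM. Of the 7 tested extraembryonic endoderm markers, all were negative, where 10073 of 20027 tested genes were. With the block 1 of them, Sparc, was lower (14.3%, against 3.9% of all tested genes). Summed trophoblast markers were at 76.6, 69.8 and 78.1 CPM in DMSO and 79.0, 76.2 and 81.4 CPM in MB-3. Tfap2c, also in the germ cell list, made up 61.2 to 71.8 CPM of these sums. Of the 6 tested trophoblast markers, 5 were negative, with a median log2 fold change of -0.36 over the 6. With the block Tfap2c was higher and Eomes lower (2 of 6, 33.3%, against 7.12% of all tested genes called). Neural markers summed to 370.0, 369 and 390.3 CPM in DMSO and 363, 384 and 366 CPM in MB-3. Of 7 tested neural markers, Pax6 rose by 0.39 and Nes fell by 0.69 with the block (28.6%, against 7.12% of all tested genes called). Nes, an intermediate filament of progenitor cells, was highest in C and lowest in B of both groups, as Igf2 was. Germ cell markers summed to 151, 146 and 135 CPM in DMSO and to 160, 160 and 161 CPM in MB-3, and Ddx4, Tfap2c and Mael rose with the block in edgeR (3 of 7, 42.9%, against 3.22% of all tested genes), of which DESeq2 without the block called Mael. The part of these markers in the changes of the imprinted genes was not tested.

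The genes that keep imprints through cell division were read beside the imprinted genes themselves. All 17 tested had a positive log2 fold change, with a median of 0.10, where 9954 of 20027 genes were positive. Of them 0 were called without the block by edgeR (3 at an unadjusted p under 0.05) or by DESeq2, and 2 by edgeR with it (11.8%, against 7.12% of all tested genes). With the block, Setdb1, an H3K9 methyltransferase, rose by 0.17 and Atrx, a chromatin remodeller, by 0.17. Zfp57, the zinc finger protein that recognises methylated control regions, was at 363, 384 and 334 CPM in DMSO A, B and C and 393, 417 and 370 CPM in MB-3 (log2 fold change 0.13, edgeR adjusted p = 0.52). Trim28, its corepressor, had a log2 fold change of 0.06, the maintenance methyltransferase Dnmt1 one of 0.10, its partner Uhrf1 one of 0.07 and the insulator protein Ctcf one of 0.12, and none of them was called in either fit.

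Among 10 tested genes that establish or erase imprints, 2 rose without the block (20.0%, against 0.205% of all tested genes called), both de novo DNA methyltransferases. Dnmt3a was at 69.0, 70.9 and 65.4 CPM in DMSO and 87.9, 88.9 and 82.5 CPM in MB-3 (log2 fold change 0.34, edgeR adjusted p = 0.048). Dnmt3b was at 341, 355 and 341 CPM in DMSO and 425, 437 and 433 CPM in MB-3 (log2 fold change 0.32, edgeR adjusted p = 0.036). For both, the lowest MB-3 library exceeded the highest DMSO library by a margin wider than the spread within a group. With the block 5 of the 10 rose (3.22% of all tested genes), Dnmt3l, Tet1 and Tet2 being the others. In the fit without the block, both calls were lost without MB-3 A and without MB-3 B, where 0 genes in all were called. They were also lost without DMSO C, where 0 genes were called higher. Without DMSO A, 1 gene in all was called higher, so at least 1 of these 2 calls was lost. DNA methylation was not measured.

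The partners of IGF signalling were read beside Igf2, Igf2r and Grb10. Of 12 tested, 0 were called by edgeR without the block (5 at an unadjusted p under 0.05). DESeq2 without the block called Igfbp4 and Igf2bp2, where it called 0.959% of all tested genes. By edgeR with the block 2 rose and 4 fell, where 3.22% of all tested genes rose and 3.9% fell. Igfbp3, which binds and carries IGFs, was at 61.8, 36.0 and 105 CPM in DMSO A, B and C and 29.0, 22.2 and 43.1 CPM in MB-3, and it fell by 1.04 with the block (edgeR adjusted p = 1.4e-12). Its letters took the same order as those of Igf2. The binding proteins Igfbp4 and Igfbp5 and the docking protein Irs2 fell as well, while Igf1 and Igf2bp2 rose. Igf2bp2, an RNA-binding protein known to bind Igf2 mRNA, was at 148, 147 and 136 CPM in DMSO and 170, 179 and 167 CPM in MB-3. Igf1 was below 1 CPM in every library.

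Of a further 34 imprinted genes in the table, 29 were tested. Without the block edgeR called 0 (2 at an unadjusted p under 0.05). DESeq2 without the block called 1, Cd81, where it called 0.959% of all tested genes. With the block edgeR called 3 (10.3%), a share near the 7.12% of all tested genes. Cd81, a tetraspanin gene of the Kcnq1 domain, was at 96.5, 100 and 114 CPM in DMSO and 82.0, 77.6 and 91.7 CPM in MB-3, and it fell by 0.30 with the block (edgeR adjusted p = 3.5e-05). Calcr, the calcitonin receptor, fell by 0.43 and Ppp1r9a, which encodes the actin-binding protein neurabin, rose by 0.18. Both lie near Peg10 and Sgce on chromosome 6.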

How the data were processed

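RNA-seq counts were analysed for 3 DMSO and 3 MB-3 cultures, grouped by the labels. The libraries were made with polyA enrichment. The deposited values are raw counts, made by the authors with Bowtie (reads trimmed, single-end, mm10) and GenomicAlignments, which summed reads over the exons of each gene. Versions, annotation release and strand use are not given in the sources used here. The table held 0 rows that name no gene. Of its identifiers, 30540 were matched to GENCODE M21 (GRCm38). Using edgeR 4.0.16 (R 4.3.3), genes were kept by filterByExpr, normalized by TMM and tested by glmQLFTest, with Benjamini-Hochberg adjustment over all 20027. The letter was tested by an F-test beside treatment. CPM per kb used the union of exons. The procedure was tested on simulated data. For the treatment fits those data held no differences between letters, unlike these libraries. Alternatives were the block, other normalizations and filters, DESeq2 1.42.0, limma-voom 3.58.1, the robust option and leaving out libraries. Replicates differed by at least 8.39 chi-square units per gene, so none was counted as a duplicate.

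Members, lists and the naming rule were chosen with earlier results of these data known. The rule gave values per library for members called for treatment or letter, the 10 highest in DMSO per kb and those under 10 counts. Of the other lists it named genes called without the block, the 5 largest called with it, Zfp57, Trim28, Dnmt1, Uhrf1 and Ctcf, with values per library for some. Plots used matplotlib 3.10.9. The H3K9ac peak lists, positions on mm9, were not used here.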

Additional observations from a re-analysis of the deposited data

How the results depend on the processing

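Which imprinted genes were called depended on the replicate letter. The labels do not say that a letter marks a shared day or batch. The deviations of same-letter libraries from their group means correlated at 0.0982 in A, 0.261 in B and 0.213 in C over 20027 genes. The fit without the replicate block was the main one because treatment is the only factor that the study's methods name. It was kept as the main one with A under 0.1 here. On log2(CPM + 0.1) the values were 0.115, 0.287 and 0.232, and over the 10801 genes with a mean log2 CPM over 3 they were 0.397, 0.574 and 0.390. All of these were over 0.1, and each library correlated best with its own letter. These values go with pairing by letter, and the main count of 0 imprinted genes comes from a fit that leaves the letter out. Against 0 imprinted genes and 41 genes in all without it, the block called 6 and 1425. Without the filter on low counts, 1 imprinted gene (Plagl1) and 194 in all were called, and with DESeq2 2 and 192. Upper quartile normalization called 25 genes in all, a minimum of 1 CPM in 3 libraries 24, limma-voom 18 and the robust option 66, each with 0 imprinted genes. Leaving out 1 library gave 0 to 3 imprinted genes (3 without DMSO B: Kcnq1ot1, Plagl1 and Sgce) and 0 to 520 in all, and the block without 1 letter gave 4 (A), 6 (B) and 8 (C) imprinted genes and 939, 912 and 1037 in all. Letter calls were 9, against 4 by DESeq2 and 2 to 11 with 1 library left out. Of 17 alternatives, Plagl1 was called in 7, Sgce and Mest in 5, Igf2 and Kcnq1ot1 in 4, Grb10 in 3 and Meg3 and Peg10 in 1, the block without letter C (adjusted p = 0.036 and 0.029, edgeR). The sign held in every alternative for 18 of 33 genes. The near-zero change of Igf2r was 0.00 (0.0039) with the block and 0.0050 with limma-voom. With 1 library left out, the log2 fold change took both signs in 14 genes, at Cdkn1c -0.16 to 0.0082, Phlda2 -0.16 to 0.032, Ascl2 -0.20 to 0.018, Rian -0.021 to 0.039, Mirg -0.096 to 0.017, Dlk1 -0.12 to 0.076, Rtl1 -0.051 to 0.088, Peg3 -0.15 to 0.043, Snrpn -0.091 to 0.068, Magel2 -0.23 to 0.18, Mkrn3 -0.12 to 0.023, Igf2r -0.085 to 0.082, Impact -0.048 to 0.026 and H13 -0.085 to 0.017. With the block and without letter A, it was -0.0027 for Rian, 0.0065 for Peg3, 0.042 for Snrpn, 0.050 for Mkrn3, 0.047 for Igf2r, 0.053 for Impact and 0.037 for H13. With the block and without letter B, it was 0.071 for Ascl2, 0.13 for Dlk1 and 0.042 for Nnat. With the block and without letter C, it was -0.018 for Rtl1, 0.033 for Peg3, 0.11 for Magel2 and 0.013 for Igf2r. Counting exons of the longest transcript moved 21 of 35 levels per kb by more than 1 SD.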
